A study of Sus scrofa with 4 samples.

Results

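The young lean pig's muscle library held 68 tags at a share at most 0.5 times that in each of the other 3 libraries of the series. They were chosen on those measured shares, each tag's count over its library's total, among the 464 tags that reached 10 copies in the sum of the 4 libraries. They are therefore 14.7% of the tags examined, out of 17902 different tags in all. Each contrast with the young lean library was used by the choice, and is given below as a description with no test. The limit of 0.5 sets no order among the other 3 libraries, and the contrasts among them were tested. The minimum of 10 copies does draw on them. A member that reaches it only through the library where it is high had to differ there, so its values are given below as a description, and each count of calls is followed by the count without such tags. Of the 68 members, 60 had 1 copy or more in each of the other libraries. The remaining 8 were at 0 in the young lean library and at 0 in another library as well, so that they met the rule there only as 0 against 0. The same rule turned to the other libraries picked 40 tags low in the older lean library, 50 in the young fat library and 83 in the older fat library.

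The libraries came from Longissimus dorsi, the long muscle of the back, sampled by biopsy in castrated male pigs. The Dunel line (Landrace X Duroc) was represented by a pig picked as lean and purebred Large White by a pig picked as fat, each 1 of the 10 reared per line, on live weight and daily gain. Biopsies at 3 and at 9 months gave the groups Dunel 3 month, Dunel 9 month, large white 3 month and large white 9 month, each with 1 library. A separate age label gives 3 months for all of them, and the sample titles were followed. Line and animal cannot be told apart, nor can age and library within a line, so every test below compares libraries, and no value has a replicate.

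Serial analysis of gene expression counts short tags, each cut from a transcript beside the last site of a restriction enzyme before its 3′ end. The tags are ligated in pairs, called ditags, and then joined in long chains that are sequenced. The share of a tag in a library stands for the abundance of its transcript, provided that no other transcript carries the same bases. A change of base within the tag, from a sequence variant or a reading error, gives a different tag. A biopsy of back muscle holds fibres, connective tissue, fat cells, vessels and blood. The tags were not matched to transcripts here, so no gene is named, and the labelled tissue was not checked against its markers. In such bulk samples, fewer cells of a type and less RNA per cell cannot be told apart.

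The libraries held between 12980 and 13590 tags. Different tags numbered 5158 in Dunel 3 month, 4437 in Dunel 9 month, 5241 in large white 3 month and 7665 in large white 9 month. A tag that was not seen could have made up to 0.0221% to 0.0231% of a library, which is 3 counts of the total. This limit and the intervals cover counting error only, and with 1 library per group they hold no spread between pigs or biopsies. They treat each copy as independent. Repeats made up 6.94% to 19.5% of a library's ditags, which carry no molecular identifiers. Mean GC content of all tags was 57.1% in Dunel 3 month, 55.3% in Dunel 9 month, 50.9% in large white 3 month and 49.2% in large white 9 month.

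The 14 members with 50 or more copies are printed first, because they carry most of the copies that the text describes. Each is the 17 bases that follow CATG, 5′ to 3′, numbered by total copies over the libraries, with a polyadenylation signal (AATAAA or ATTAAA, the hexamers that direct cleavage of the transcript's end) in capitals.
tag 1: accacttaccggagccc
tag 2: tgatgtcaaggaaataa
tag 3: caggtttaagttcgatt
tag 4: atggccgaggagctgaa
tag 5: aaaaatcatcgttgtac
tag 6: aaagtcattgaaagccg
tag 7: taatgtaagaagaaaaa
tag 8: gactaatctttctgatc
tag 9: tgtgtgtgtgtttgtag
tag 10: taataccaagaattgtt
tag 11: aATTAAAaaaaaaaaaa
tag 12: aaggatgaggaaaagat
tag 13: tcaagcctagcagtcta
tag 14: aaatactatttcctcaa

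Together the 68 members made up 1.24% of the tags in Dunel 3 month (168 tags, 95% Wilson interval 1.06% to 1.44%). They made up 6.43% of Dunel 9 month (835 tags, 6.02% to 6.87%), 7.82% of large white 3 month (1027 tags, 7.37% to 8.29%) and 6.13% of large white 9 month (823 tags, 5.74% to 6.55%). The summed share in Dunel 9 month was 5.20 times that in Dunel 3 month, and the large white libraries stood at 6.33 and 4.96 times it. These ratios follow from the choice of the members. In Dunel 3 month, 28 members were not seen, 22 were seen a single time, and the remaining members carried the other copies there. The 6 most frequent members held 63.7% of all member tags in that library, 55.0% in Dunel 9 month, 49.7% in large white 3 month and 35.4% in large white 9 month.

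Tag 1 was counted 32 times in Dunel 3 month, 148 times in Dunel 9 month, 110 times in large white 3 month and 69 times in large white 9 month. It is the most GC-rich of the frequent members, with 64.7% G and C, and its highest share was 1.14% of a library. Tag 2 was counted 16, 101, 125 and 71 times, in that order, which is kept below. Tag 3 was counted 21, 51, 101 and 45 times. The young large white library stood alone for tag 3, at 0.769% of its tags against at most 0.393% in the others. Tag 4 was counted 14, 71, 67 and 33 times, and tag 5 14, 55, 61 and 46 times. Tag 6 was counted 10, 33, 46 and 27 times. Tags 1 to 6 were thus all present in the young lean library, at 10 to 32 copies, and the shares of tags 5 and 6 in the other libraries lay closest together.

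Tags 7 to 9 were less frequent and less even. Tag 7 was counted 4, 10, 53 and 18 times, and tag 8 6, 15, 37 and 22 times. Both therefore had their highest share in large white 3 month, where the share of tag 7 was 13.7 times that in Dunel 3 month. In Dunel 9 month the shares of both were 2.62 times those in Dunel 3 month. Tag 9, which is mostly a run of alternating t and g, was counted 7, 34, 15 and 21 times and was highest in Dunel 9 month.

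Tags 10 and 11 were rare in 3 of the libraries. Tag 10 was counted 1, 7, 2 and 66 times, and tag 11 1, 5, 3 and 60 times. Their low share in Dunel 3 month rests on 1 copy each, and large white 9 month holds most of their copies. Tag 11 is built of A and T alone, and its last bases are a run of A like that of a transcript's tail.

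Tags 12 to 14 were at or near 0 in Dunel 3 month. Tag 12 was counted 3, 20, 22 and 17 times, and tag 13 2, 35, 17 and 6 times. Tag 14 was not seen in Dunel 3 month and was counted 15, 20 and 21 times in the others, which is at least 5.23-fold, 6.90-fold and 7.09-fold above the limit of 3 counts in that library. Tag 14 is the only member of 50 or more copies that Dunel 3 month lacked.

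**Figure D1:**
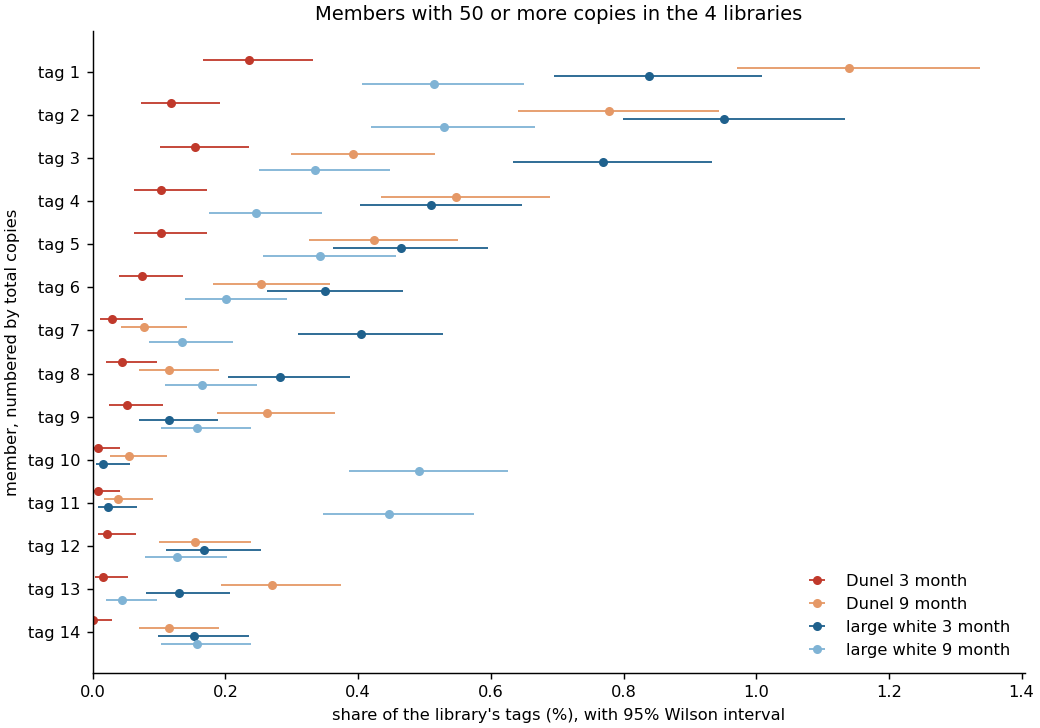
Share of the library's tags in percent (x axis) for the 14 members with 50 or more copies (y axis), 1 point for each library with its 95% Wilson interval. Dunel 3 month lies at the left for every tag, by the choice of the members, while the order of the other 3 libraries differs between tags. Tag 13 is highest in Dunel 9 month, tag 7 in large white 3 month, and tags 10 and 11 in large white 9 month.

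Most members were scarce. Their copies over the libraries ran from 10 to 359 with a median of 16, against a median of 20 over all tags examined. In all, 42 members had 10 to 19 copies, 12 had 20 to 49 and 14 had 50 or more. At such counts the limit of 0.5 turns on single tags. Among the members, 7 shared the highest ratio, 0.494, and among these tag 29 was counted 1, 6, 9 and 2 times and tag 32 2, 6, 5 and 4 times. Just outside the limit, at ratios of 0.539 and 0.564, stood a tag counted 6, 20, 16 and 11 times and a tag counted 4, 12, 17 and 7 times. Taken alone, a share at most 0.5 times that of Dunel 9 month was found for 125 of the 464 tags (26.9%), of large white 3 month for 122 (26.3%) and of large white 9 month for 97 (20.9%).

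The members were richer in A and T than the other tags. Their median GC content was 47.1%, against 52.9% over all tags examined and 58.8% over the 396 that were no members. Among tags with 50 or more copies the medians were 35.3% for the 14 members and 52.9% for all 87. Of the 52 tags with under 30% GC, 16 were members (30.8%). The share of members was 22.9% of the 35 tags with 30% to 40% GC, 18.1% of the 83 with 40% to 50%, 11.3% of the 133 with 50% to 60% and 8.70% of the 161 with 60% or more. Across these classes the share of members was lower with each step up in GC content. The range within the members was wide, from 0% in tag 11 to 82.4% in tag 55. Members that were highest in Dunel 9 month had a median of 52.9% (25 tags), those highest in large white 3 month 38.2% (32 tags), and those highest in large white 9 month 52.9% (11 tags).

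Mean GC content of the whole library was highest in Dunel 3 month, at 57.1% against 55.3% in Dunel 9 month, and lowest in large white 9 month, at 49.2%. The members' summed share in these libraries was 1.24%, 6.43% and 6.13%. The part of library composition in the result was not tested. With totals scaled within 5 classes of GC content, 66 tags met the rule, and 60 of them were members under the library totals. A polyadenylation signal was found in tags 11, 15 and 51, which is 4.41% of the members against 4.53% of all tags examined. Tag 15 reads cttactaaAATAAAaac and was counted 5, 11, 14 and 15 times, and tag 51 reads gtagaATTAAAggcgga and was counted 0, 9, 1 and 2 times.

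**Figure D2:**
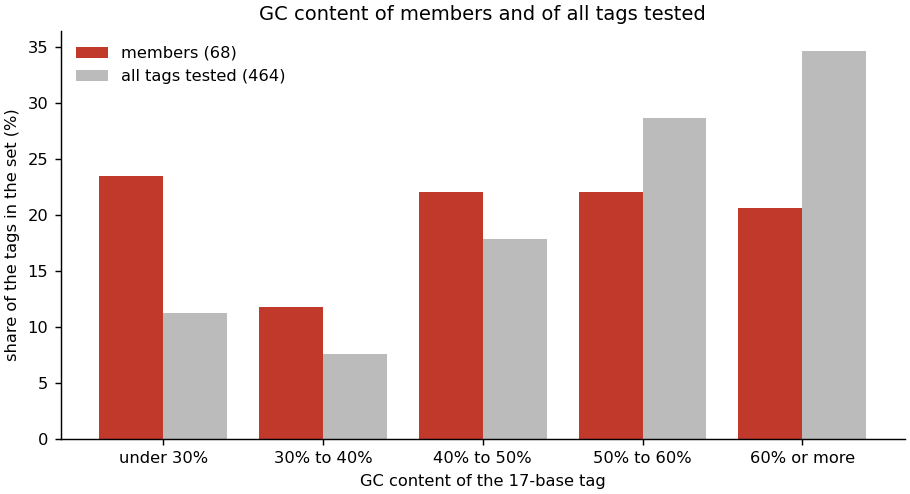
Share of each set of tags in percent (y axis) by class of GC content of the 17-base tag (x axis), for the 68 members and for all 464 tags examined. Each class under 50% GC makes up more of the members than of all tags, and 20.6% of them against 34.7% of all tags hold 60% GC or more.

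Whether the older lean library came up to the fat libraries was asked tag by tag. Dunel 9 month reached 0.5 times the mean share of the large white libraries or more for 47 of the 68 members (69.1%), against 83.2% of all tags examined. It reached that mean or more for 31 members (45.6%), against 62.3%. For 22 members (32.4%) it lay within 2-fold of both large white libraries, against 27.2%. It was below both large white libraries for 23 members (18.3% of all tags), between them for 20 (29.7%) and above both for 25 (51.9%). Among the 3 libraries, the highest share was in Dunel 9 month for 25 members (52.4% of all tags), in large white 3 month for 32 (33.0%) and in large white 9 month for 11 (14.7%). Members thus fell on either side of the large white levels, and fewer of them than of all tags were highest in Dunel 9 month. Summed over the members, Dunel 9 month stood at 0.822 times large white 3 month (counting interval 0.751 to 0.901) and at 1.05 times large white 9 month (0.953 to 1.15). For the 60 members seen in each of the other libraries the ratios were 0.911 (0.830 to 1.0004) and 1.12 (1.01 to 1.23). All these positions and ratios use library totals. The median log2 ratios given below moved with the scaling, against large white 9 month from 0.05 to -0.67.

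Between the older lean and the young fat library, 10 members passed an adjusted p of 0.05 in the two-sided Fisher's exact test, adjusted by Benjamini-Hochberg over the 464 tags. All tags gave 33 such calls (7.11%). In Dunel 9 month 9 of these members were lower (3.45% of all tags) and 1 was higher (3.66%). Of the 10, 4 reached the minimum only through large white 3 month. Among tags with 10 or more copies outside the library where they are high, 6 of 31 members passed (19.4%), 5 lower and 1 higher, against 28 of 306 tags (9.15%). The median member had a log2 ratio of -0.35 between the libraries, against 0.10 over all tags, a distance of -0.45. For the 60 members seen in each of the other libraries the median was -0.12 and the distance -0.23. Scaling by TMM (trimmed mean of M-values) moved the median of all tags to -0.09 and left the distance of the 68 as it was. Tag 7 was 5.04-fold lower in Dunel 9 month (2.60 to 9.76, Fisher's exact test, adjusted p = 2.6e-06). Tag 3 was 1.95-fold lower (1.39 to 2.72, Fisher's exact test, adjusted p = 0.00188). Its call was lost when totals were scaled within GC classes (adjusted p = 0.175). Tag 8, with 15 against 37 tags, was 2.39-fold lower and lost its call there too (Fisher's exact test, adjusted p = 0.0447, and 0.289 with the GC classes).

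Tags 16, 22, 23, 36 and 66 were not seen in either Dunel library, and they make up 5 of the 9 lower calls. Tags 16 and 22 have 10 or more copies without large white 3 month. Tag 16 was counted 22 times in each large white library, at least 7.25-fold above the limit of 3 counts in Dunel 9 month (Fisher's exact test, adjusted p = 2.21e-05). Tag 22 was counted 14 and 11 times in the large white libraries, at least 4.61-fold above that limit at 3 months (Fisher's exact test, adjusted p = 0.00333). The other 4 lower tags reached the minimum only through large white 3 month. Tag 23 was counted 0, 0, 19 and 5 times, tag 36 0, 0, 11 and 5 times, and tag 35 0, 1, 13 and 2 times. Tags 16, 22, 23, 35 and 36 each have a form 1 base away, printed below. With that form added, Dunel 9 month and large white 3 month held 37 and 23 copies for tag 16 and 10 and 14 for tag 22. For tags 23, 35 and 36 the sums were 9 and 19, 4 and 13, and 5 and 11. These sums were not tested. Tag 66, tcaaataatttcaactt, was counted 10 times in large white 3 month and in no other library. The member that was higher in Dunel 9 month is tag 19, aaaggatgctggatcct, counted 1, 18, 3 and 11 times. It was 5.35-fold above large white 3 month (1.71 to 16.8, Fisher's exact test, adjusted p = 0.0161), a log2 ratio of 2.42. The call was lost at log2 ratios of 2.23 under TMM (adjusted p = 0.0501) and 2.04 within the GC classes (0.0978), and with ditags counted a single time (0.0692).

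Between the older lean and the older fat library, 10 members passed, with 14.7% of all tags passing. Here 3 members were higher in Dunel 9 month (10.1% of all tags) and 7 were lower (4.53%). Of the 10, 4 reached the minimum only through large white 9 month. Without such tags 6 of 36 members passed (16.7%), 3 in each direction, against 54 of 315 tags (17.1%). Under TMM and within the GC classes the split was 1 higher and 7 lower, so 11.8% of the members were called, against 7.11% and 5.603% of all tags. The median log2 ratio of the members was 0.05, against 0.58 over all tags, a distance of -0.53. TMM moved the median of all tags to -0.14 and that of the members to -0.67. Tag 13 was 5.65-fold higher in Dunel 9 month (2.45 to 13.0, Fisher's exact test, adjusted p = 5.15e-05). Tag 1 was 2.21-fold higher (1.66 to 2.94, Fisher's exact test, adjusted p = 6.07e-07) and tag 4 2.21-fold higher (1.46 to 3.33, adjusted p = 0.00171). Tags 1 and 4 lost their calls under TMM (adjusted p = 0.241 and 0.538) and within the GC classes (0.954 and 1), whereas tag 13 kept its call under both.

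Tag 10 was 8.58-fold lower in Dunel 9 month than in large white 9 month (4.03 to 18.2, Fisher's exact test, adjusted p = 3.17e-11). Its log2 ratio of -3.10 became -1.82 with ditags counted a single time, and the call was kept at a larger p (Fisher's exact test, adjusted p = 0.0184). Tag 10 has 10 copies outside large white 9 month, just the minimum. Tag 16 was at least 7.09-fold and tag 22 at least 3.55-fold lower, each at 0 in Dunel 9 month. With the form 1 base away added, Dunel 9 month and large white 9 month held 37 and 28 copies for tag 16 and 10 and 14 for tag 22, which was not tested. The other 4, tag 11, tag 21, tag 26 (ctactaaaaaaccaatg, counted 0, 1, 5 and 14 times) and tag 34, have 2 to 9 copies outside large white 9 month. Tags 21 and 34 belong, with tag 61, to a group of like sequences that is frequent in large white 9 month. Their copies ran 1, 2, 3 and 21 for tag 21, 0, 1, 1 and 14 for tag 34, and 0, 1, 2 and 7 for tag 61.
tag 21: aggttgcaggttcgatc
tag 34: aggttgcaggttcggtc
tag 61: aggttgcgggttcaatc

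**Figure D3:**
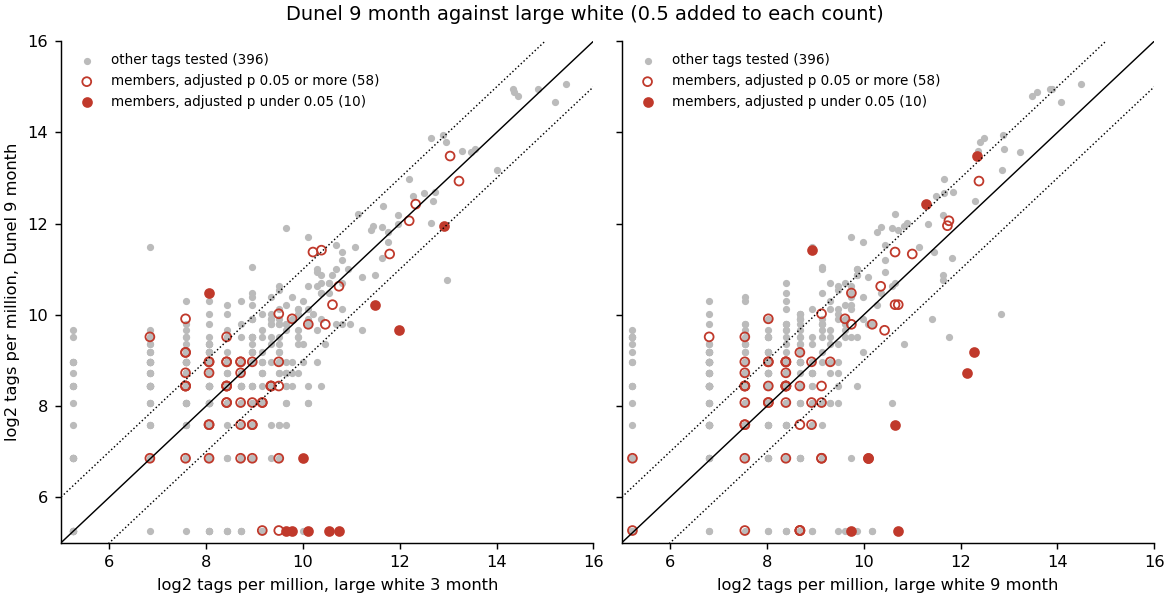
Level in Dunel 9 month (y axis) against large white 3 month (left) and large white 9 month (right), on a log2 scale of the tag's share of its library, with 0.5 added to each count. Grey points are the 396 tags that are no members and red circles the members, filled where the adjusted p was under 0.05. The solid line marks equal levels and the dotted lines a 2-fold difference. The filled circles on the bottom edge are members not seen in Dunel 9 month.

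Within the fat pig, 13 members differed between the libraries of 3 and 9 months, with 10.3% of all tags called. At 9 months 9 of them were lower (7.76% of all tags) and 4 were higher (2.59%). Of the 13, 7 reached the minimum only through the library where they are high. Without such tags 6 of 31 members passed (19.4%), 5 lower and 1 higher, against 34 of 320 tags (10.6%). The median log2 ratio of the members was -0.34, against -0.50 over all tags. Under TMM these medians were 0.19 and 0.03, so the direction of the members' median rests on the scaling. Tag 10 was 26.0 times as frequent at 9 months (7.36 to 92.0, Fisher's exact test, adjusted p = 2.14e-15). Its log2 ratio of 4.70 became 3.29 with ditags counted a single time, and the call was kept at a larger p (Fisher's exact test, adjusted p = 0.000331). The other higher tags, 11, 21 and 34, were among the 7. Among the lower tags, tag 3 fell 2.28-fold (1.61 to 3.23, Fisher's exact test, adjusted p = 6.04e-05), tag 7 fell 2.96-fold (1.74 to 5.01, adjusted p = 0.000566) and tag 2 fell 1.79-fold (1.34 to 2.40, adjusted p = 0.00135). Tags 1 and 4 were lower too, and tags 23, 35, 64 and 66 were among the 7. None of these 9 was called lower under TMM or within the GC classes, where tags 10, 11, 21 and 34 alone were called. That is 5.88% of the members, against 5.17% and 4.74% of all tags.

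Several members that the lean pig lacked stood beside a tag of nearly the same bases that it did not lack. For 7 members the counts in the lean pig's libraries lay almost wholly on a tag that differs by 1 base, and the counts in the fat pig's libraries mostly on the member. These pairs were picked after the values were seen. They are shown because the low share of the member in Dunel 3 month depends on whether the forms are counted apart. The base that differs is in capitals, and the substitution names the member's base, its position from the first base after CATG, and the base of the other form.
tag 16: tcatccggcaGaatgcg
other form, G11A: tcatccggcaAaatgcg
tag 22: gtaggggaaggagGagg
other form, G14A: gtaggggaaggagAagg
tag 23: aaggctccAccgtcact
other form, A9G: aaggctccGccgtcact
tag 34: aggttGcaggttcggtc
other form, G6T: aggttTcaggttcggtc
tag 35: caggAgcttcagttgat
other form, A5G: caggGgcttcagttgat
tag 36: ctgtCggtgacattcct
other form, C5T: ctgtTggtgacattcct
tag 49: aaacattggagtagtTc
other form, T16C: aaacattggagtagtCc

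The other form of tag 16 was counted 29 times in Dunel 3 month, 37 times in Dunel 9 month, 1 time in large white 3 month and 6 times in large white 9 month. Tag 16 itself was counted 0, 0, 22 and 22 times. Both forms together therefore stood at 29, 37, 23 and 28 copies, which no longer meets the rule. The other form of tag 23 was counted 26 and 9 times in the Dunel libraries and in neither large white library, where tag 23 was counted 19 and 5 times. The sums were 26, 9, 19 and 5, which does not meet the rule.

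The other form of tag 36 was counted 13, 5, 0 and 3 times, against 0, 0, 11 and 5 for the member. For tag 22 the other form was counted 8, 10, 0 and 3 times, against 0, 0, 14 and 11. For tag 35 it was counted 3, 3, 0 and 0 times. In these 3 pairs, too, the forms together did not meet the rule. The other form of tag 34 was counted 7, 4, 1 and 2 times, and this pair follows the older fat library rather than the pig. A more frequent tag that is no member, at 1 base from tag 34 by A8G, was counted 12, 13, 12 and 97 times. The other form of tag 49 was counted 1, 4, 1 and 2 times, and this is the pair whose sum, 1, 4, 8 and 7 copies, still met the rule.

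Summed over the 7 pairs, the members held 0, 2, 87 and 64 copies and the other forms 87, 72, 3 and 16. Both forms together made up 0.640% of Dunel 3 month, 0.570% of Dunel 9 month, 0.685% of large white 3 month and 0.596% of large white 9 month. The member's part of that sum was 0% and 2.70% in the lean pig and 96.7% and 80.0% in the fat pig. The pairs were picked for such a split, so these parts follow from the choice. These 7 members hold 5 of the 8 that met the rule only as 0 against 0.

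**Figure D4:**
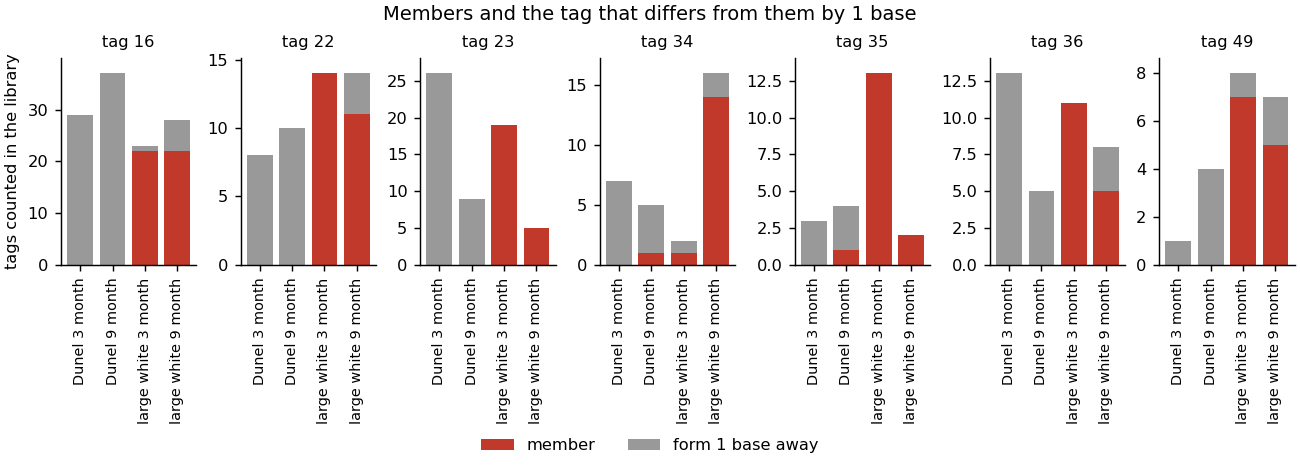
Tags counted in each library (y axis, a scale of its own in each panel) for the 7 members that have such a form at 1 base, with the member in red and the other form stacked on it in grey. The Dunel bars are grey but for 1 copy each of tags 34 and 35 in Dunel 9 month, and the red bars are in the large white libraries. For tags 16 and 22 the whole bars in Dunel 3 month hold 29 and 8 copies, where the member is at 0.

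In all, 23 members had a tag of 5 or more copies at 1 substitution, and for 11 members that tag was as frequent or more so. With all tags at 1 substitution added to each member, 49 of the 68 still met the rule and 19 did not. For 5 members the tag nearby was 25 times as frequent or more. Tags 42 and 59 differ in 1 base from a tag of 1901 copies, and they are printed beside it to show how close the forms are, with the base that differs in capitals.
tag 42: cttttTtccactcaaag
its neighbour, T6C: cttttCtccactcaaag
tag 59: Tttttctccactcaaag
its neighbour, T1C: Cttttctccactcaaag

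Tag 42 was counted 1, 3, 7 and 3 times and tag 59 1, 4, 4 and 2 times, while the neighbour was counted 567, 445, 582 and 307 times. The members were thus at most 1.19% of the copies of both forms in each library. Tag 55 (0, 1, 6 and 4 copies) and tag 57 (1, 4, 2 and 4 copies) lay at 1 base from tags of 1179 and 1214 copies. Tag 29 lay at its last base, by C17T, from a tag counted 92, 159, 130 and 70 times. The remaining members with such a neighbour were frequent tags beside rare ones (tags 1, 2, 3, 7 and 11), members of like sequence (tags 21, 34 and 61), or scarce tags beside scarce ones (tags 24, 26, 56 and 58). Tags 21, 34 and 61 also lay at 1 base from more frequent tags that are no members. For tag 34 that tag was counted 12, 13, 12 and 97 times, and for tags 21 and 61 it was counted 5, 8, 9 and 24 times. For tags 1, 2, 3 and 7 the neighbours held at most 10 copies each, and the sums with any of these neighbours still met the rule. Tag 11 did not meet it with all its neighbours added, at sums of 3, 7, 3 and 94 copies.

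Repeated ditags were the last property examined. A ditag that recurs can be an amplified copy rather than a further pair of transcripts, and the deposited counts include such repeats. With each ditag counted a single time, the members lost 8.33% of their copies in Dunel 3 month, 25.03% in Dunel 9 month, 18.3% in large white 3 month and 15.9% in large white 9 month. All other tags of each library, with no minimum of copies, lost 15.2%, 19.1%, 15.2% and 6.36%. These include tags seen a single time, which cannot lose a copy, whereas each member has 10 or more copies over the libraries. The members thus lost a smaller part than other tags in the library where they are low, and a larger part in the other 3. They were chosen on counts that include the repeats, so the choice itself favours this direction. Single tags weigh on these values. Without tag 1 the members lost 2.94% in Dunel 3 month, further below the other tags. Without tags 10 and 11 they lost 8.03% in large white 9 month, nearer to the other tags. With all members, the summed share changed to 1.34%, 5.99%, 7.55% and 5.54%. Of the 68 members, 27 had no repeated ditag and 41 had at least 1. Under this count 57 tags met the rule, and 54 of them were members as deposited.

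Tags 10 and 11 lost the most, 52.6% and 53.6% of their copies. They were joined to each other in repeated ditags that account for 40 copies in large white 9 month, which is 60.6% of tag 10's 66 and 66.7% of tag 11's 60. Counted a single time they stood at 27 and 24 copies there. Tag 2 went from 101 to 53 copies in Dunel 9 month and from 125 to 92 in large white 3 month, and stayed at 16 in Dunel 3 month. Tag 4 went from 71 to 42 in Dunel 9 month and lost its call against large white 9 month. Tag 21, tag 26 and tag 34 had no repeated ditag, and tag 16 went from 22 and 22 to 19 and 20 copies. Of the 10 calls between Dunel 9 month and large white 3 month, those of tags 7, 16, 22, 23 and 66 were kept. Of the 9 lower calls between the large white libraries, those of tags 1, 4 and 35 were lost, tag 35 at a log2 ratio of -2.37 in place of -2.46. Tag 64 then fell under 10 copies and was not tested.

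**Figure D5:**
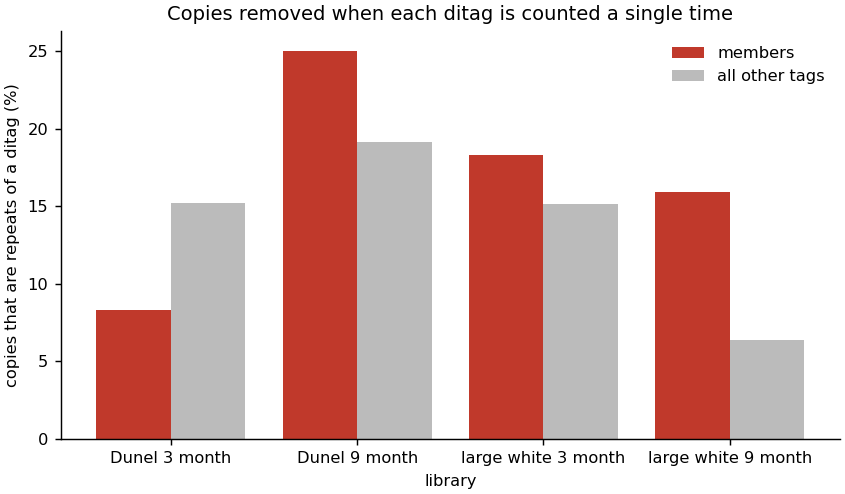
Copies that are repeats of a ditag, in percent of copies (y axis), for the 68 members and for all other tags in each library (x axis). The members stand below the other tags in Dunel 3 month, at 8.33% against 15.2%, and above them in the other libraries. The members were chosen on counts that include these repeats, and the other tags were held to no minimum of copies.

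Sequence entries in which the same ditags recur can be reads of like clones. Pairs of entries that share 5 or more repeated ditags were found 8 times in Dunel 3 month, 29 times in Dunel 9 month, 1 time in large white 3 month and 14 times in large white 9 month. Counting such entries as 1 removed 29 member copies in Dunel 9 month, 13 in large white 9 month and 0 in the libraries of 3 months, and the same 68 tags met the rule.

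A core of 10 members was common to these choices. Tags 2, 5, 12, 13, 14, 17, 18, 19, 20 and 26 met the rule under each stricter limit and higher minimum, both scalings, the single count of ditags, the sums with neighbours and the linked entries. The looser limit, the tags shortened to 15 bases and the minimum met outside the library where a tag is high were not part of that comparison. Tag 26, counted 0, 1, 5 and 14 times, has 6 copies outside large white 9 month, so it reaches the minimum of 10 only through that library. Its place against Dunel 9 month rests on 0 copies against 1, under the limit of 3 counts. Tag 17, accggtttaaagtcttc, was counted 1, 11, 18 and 11 times. Tag 18, caaatgaggtgtgccag, was counted 1, 12, 11 and 10 times, and its shares in the 3 libraries other than Dunel 3 month lay closest together among these 10. Tag 20, cacgctttcttcaaagc, was counted 2, 13, 9 and 7 times.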

How the data were processed

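The libraries were made from total RNA of muscle biopsies, isolated with TRIZOL per the labels' protocols. Per the file headers, the authors obtained each tag's count and its percent of valid tags with SAGEparser.pl 3.1, from ditags of 32 to 36 bases, without removing repeated ditags. The labels and headers name no aligner or genome build. The deposited counts were used, and the percent column served as a check of them.

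Shares are counts over library totals. Libraries other than Dunel 3 month were compared per tag with Fisher's exact test (SciPy 1.17.1) and Benjamini-Hochberg adjustment over 464 tags. Log2 ratios and folds of single tags among the libraries tested have 0.5 added to each count and 95% counting intervals. Ratios of single tags to Dunel 3 month have nothing added and no interval. Ratios of summed shares have nothing added. A bound against a count of 0 uses 3 counts in that library. TMM factors came from edgeR 4.0.16 in R 4.3.3, and scaled totals were compared with an exact binomial test. The test was checked on simulated data. Python 3.11.15, NumPy 2.4.6, pandas 2.3.3 and matplotlib 3.10.9 were used.

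The members, the rule for named tags and the lists were chosen with earlier results of these data known. Named tags are the 12 with most copies, up to 3 called members with the smallest p per comparison and direction, members with a neighbour of 5 or more copies, members losing over 50% of copies to repeated ditags, and the 2 nearest the limit on each side. Others named were chosen after their values were seen. Alternatives were a minimum of 5 or 20 copies, limits of 1/1.5 and 1/3, 1 copy required in each of the other 3 libraries, TMM, 5 GC classes, single ditags, 15-base tags, neighbours added and 1 added to each count. Linked entries as 1, leaving out members next to a tag as frequent or more, and a minimum met outside the library where a tag is high were added after seeing the data. The gene lists written for this work were not run, since tags were not matched to transcripts.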

Additional observations from a re-analysis of the deposited data

How the results depend on the processing

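The number of members moved from 68 to 217 with a minimum of 5 copies, to 26 with a minimum of 20 and to 44 with a limit of 1/3. The other 9 alternatives gave 49 to 79. The median GC content of the members was 40% for tags shortened to 15 bases, where a base weighs more, and stayed within 1 base of 47.1% otherwise. Members called between Dunel 9 month and large white 3 month were 5 in place of 10 with ditags counted a single time or without the 8 members at 0 in another library. With single ditags these were 7.81% of the members tested against 4.69% of all tags, and without the 8 members 8.33% against 7.11%. Between the large white libraries 4 members were called in place of 13, all higher at 9 months, under TMM and within the GC classes. These were 5.88% of the members, against 5.17% and 4.74% of all tags. Among tags with 10 or more copies outside the library where they are high, an alternative added after seeing the data, 6 members were called in each of the 3 comparisons. The split between Dunel 9 month and large white 9 month turned from 3 higher and 7 lower to 1 and 7 under TMM.

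Median log2 ratios of the members moved as follows. Dunel 9 month over large white 3 month was -0.54 under TMM and -0.12 without the 8 members. Dunel 9 month over large white 9 month was -0.67 under TMM, -0.40 within the GC classes and -0.15 with a minimum of 20 copies. Large white 9 month over large white 3 month was -0.19 without the 8 members, and turned to 0.19 under TMM and 0.15 within the GC classes. TMM moved all tags by the same amount, so the distance of the members' median from that of all tags was unchanged by construction, at -0.45, -0.53 and 0.16. Without the 8 members it was -0.23, -0.53 and 0.31. No paired analysis was possible because each comparison sets 1 library against 1 other. A fit of age with the pig as a block would draw on Dunel 3 month, which the choice of members used, and was not run. With 28 members at 0 in Dunel 3 month, depth sets how far below the other libraries they lie.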
